A study of Mus musculus with 6 samples.

Results

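The small leucine-rich proteoglycans (SLRPs) are secreted matrix proteins of fibroblasts, and 10 of their genes were followed here: Dcn, Lum, Bgn, Fmod, Ogn, Omd, Prelp, Aspn, Podn and Ecm2. They were picked out by gene symbol, with no threshold on their values but with earlier results of these data known. Each had a row among the 16874 genes of the deposited table. RNA was sequenced from fibroblasts, the cells that make connective tissue, grown in culture from the colon of C57BL/6 mice aged 12 weeks. There were 3 libraries labelled Prkcz-/-, for loss of the atypical protein kinase C zeta, and 3 labelled WT. Both groups were left untreated and harvested at 24 h, when about 80% confluent. The series' design text also speaks of cells carrying a control guide or a Sox2 guide, but here each label states a genotype and no guide. Whether the replicates are separate mice, cultures or repeats of a single culture is not stated, and p-values then cover the spread between these samples alone, which may be technical.

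An SLRP has a core of leucine-rich repeats that binds collagen, and most members carry chains of chondroitin, dermatan or keratan sulfate. On the surface of collagen fibrils they influence fibril thickness and spacing, and in solution several bind growth factors of the TGF-beta family or cell surface receptors. In connective tissues such as the wall of the gut, fibroblasts are a main source of these proteins. The family is divided by sequence into classes, with Dcn, Bgn and Aspn in class I, Lum, Fmod, Prelp and Omd in class II, Ogn in class III and Podn in class V; Ecm2 is a relative with SLRP-like repeats.

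Prkcz went against the labels: it was at 1.35, 1.32 and 1.17 FPKM (fragments per kilobase of gene, relative to the reads of the library) in the libraries labelled Prkcz-/-, against 0.0433, 0.144 and 0.202 FPKM in WT. The table has no values per exon that would tell reads of a deleted stretch from the rest, and directions below follow the labels only. The worth of 1 read could be recovered from steps in the low values, and depth came to roughly 14900000 to 16800000 reads in the libraries labelled Prkcz-/- and 14800000 to 16400000 reads in WT. The fibroblast markers Col1a1 and Vim were among the most abundant transcripts, at 2972 and 2496 FPKM in the libraries labelled Prkcz-/- and 1815 and 1628 FPKM in WT. Of the 8 markers in that list, 6 were called higher and 2, Col1a2 and Col3a1, lower by the test described below. Over all genes tested, 31.5% were called higher and 37.2% lower. Summed over their lists, epithelial markers reached 1.06 to 1.88 FPKM in the libraries labelled Prkcz-/- and 1.69 to 2.42 FPKM in WT. Leukocyte markers summed to 1.73 to 2.73 FPKM in the libraries labelled Prkcz-/- and 2.04 to 2.99 FPKM in WT, and endothelial markers to 0.592 to 0.690 FPKM in the libraries labelled Prkcz-/- and 0.614 to 0.916 FPKM in WT. Glial and neuronal markers summed to 20.1 to 22.8 FPKM in the libraries labelled Prkcz-/- and 7.41 to 8.10 FPKM in WT, most of it from Uchl1.

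The SLRP genes differed between the groups in opposite directions. Fmod, Omd, Prelp, Aspn and Ogn were higher in the libraries labelled Prkcz-/-, Dcn and Lum were lower, Bgn was higher by a small amount, and Podn and Ecm2 did not pass the test. Of the 10 members tested, 6 were higher and 2 lower (limma on log2(FPKM + 0.5), two-sided, Benjamini-Hochberg adjusted p under 0.05 over the 12130 genes whose mean reached 0.5 FPKM). That share has to be read against the whole table, where the same rule called 68.7% of genes, 31.5% as higher and 37.2% as lower; with upper-quartile scaling the split over all genes turned to 4570 higher and 3597 lower, against 3825 and 4511 without it. With a log2 change of at least 1 in either direction as well, 7 of the 10 members were called, 5 higher and 2 lower, where the table had 10.8% of genes called, 7.29% higher and 3.55% lower. The median log2 change was 0.67 over the members and -0.04 over all genes tested. As the members were chosen with earlier results of these data known, these contrasts with the whole table are descriptions only. Lum passed the filter on low values only through its level in WT, so it had to differ. The groups did not overlap for 9 of the 10 members, all but Ecm2, and for 72.7% of all genes tested. In these bulk samples, fewer cells of a type and less RNA per cell cannot be told apart.

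**Figure D1:**
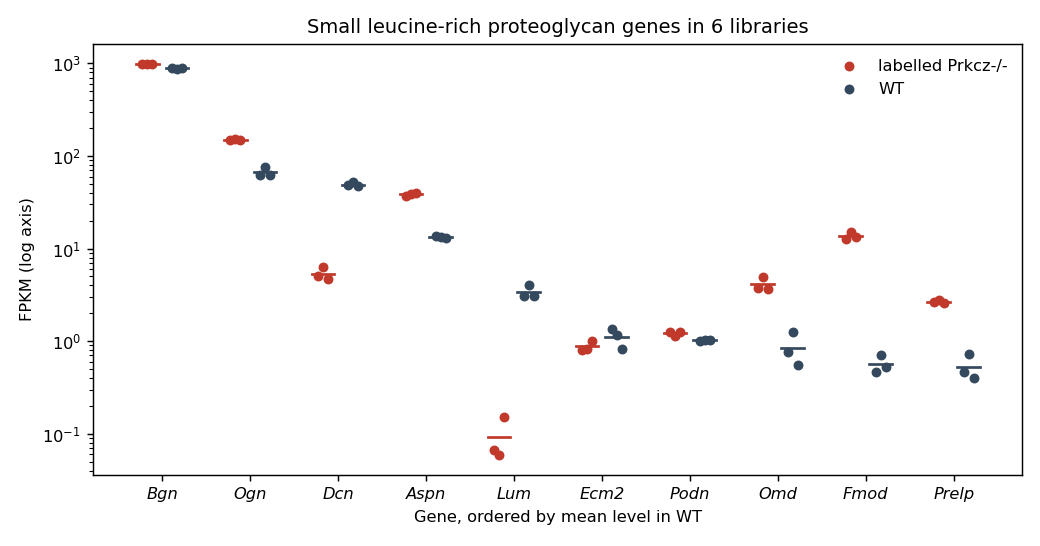
FPKM on a log axis for the 10 genes in each library, with red points for the 3 libraries labelled Prkcz-/- (left of each pair), dark points for the 3 WT libraries and a short line for each group's mean. Dcn and Lum are lower and Fmod, Omd, Prelp, Aspn and Ogn higher in the libraries labelled Prkcz-/-, while Bgn lies between 877 and 995 FPKM in all 6.

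Decorin (Dcn), a class I proteoglycan that binds type I collagen and TGF-beta, was among the most changed members. It was at 5.01, 6.35 and 4.67 FPKM in the libraries labelled Prkcz-/-, against 48.7, 51.7 and 46.8 FPKM in WT. Each library labelled Prkcz-/- was far below each WT library, and the ratio of the means was 0.109. On the log2 scale the change was -3.09, with an SE of 0.10 (limma adjusted p = 1.11e-07), and 98.7% of genes tested had a smaller absolute change. Among all genes of the table ordered by mean FPKM, Dcn stood at rank 8936 in the libraries labelled Prkcz-/- and at rank 1922 in WT. Dcn lies on the plus strand of chromosome 10 (97479609 to 97518143, GENCODE M21, GRCm38), and no annotated gene overlaps it.

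Lumican (Lum), a class II member that limits the thickness of collagen fibrils, is the next gene on that strand (97565128 to 97572703). It was at 0.0665, 0.0587 and 0.151 FPKM in the libraries labelled Prkcz-/-, against 3.07, 4.07 and 3.04 FPKM in WT. By the steps of the table these values stand for 2, 2 and 5 reads in the libraries labelled Prkcz-/-, against 102, 122 and 101 reads in WT, each within 0.01 of a whole read. Lum was thus close to the limit of detection in 1 group and readily counted in the other. The log2 change of FPKM + 0.5 was -2.71 (SE 0.14, limma adjusted p = 1.52e-06), a scale that understates the change of so low a gene. The neighbours Kera and Epyc, which encode the SLRPs keratocan and epiphycan, reached at most 0.0373 FPKM in the libraries labelled Prkcz-/- and 0.111 FPKM in WT and were not tested.

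Fibromodulin (Fmod), a class II proteoglycan that binds collagen and guides its crosslinking, was among the most changed members with Dcn and Lum. It was at 12.7, 15.1 and 13.5 FPKM in the libraries labelled Prkcz-/-, against 0.467, 0.705 and 0.531 FPKM in WT. The steps give 543, 731 and 632 reads in the libraries labelled Prkcz-/- and 22, 30 and 25 reads in WT. The groups were separated by a wide gap, and the ratio of the means was 24.3. The log2 change was 3.74 (SE 0.11, limma adjusted p = 6.00e-08), with 99.3% of genes tested changing less in absolute terms. The ratio of Fmod to Dcn, in FPKM, was 2.38 to 2.89 in the libraries labelled Prkcz-/- and 0.00960 to 0.0136 in WT.

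Prelp, a class II member with a basic end that binds heparan sulfate and links basement membrane to connective tissue, lies near Fmod on chromosome 1. It was at 2.62, 2.78 and 2.57 FPKM in the libraries labelled Prkcz-/-, against 0.464, 0.734 and 0.398 FPKM in WT. These were 143, 172 and 154 reads in the libraries labelled Prkcz-/- and 28, 40 and 24 reads in WT. All libraries labelled Prkcz-/- were above all WT libraries, and the log2 change was 1.62 (SE 0.14, limma adjusted p = 2.17e-05). The antisense gene Gm15851 shares 350 exon bases with Prelp, and no source used here states the strand setting of the counting, so reads of both could be mixed.

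Osteomodulin (Omd), a keratan sulfate proteoglycan of class II best known from bone, also rose. Its level was 3.78, 4.89 and 3.69 FPKM in the libraries labelled Prkcz-/- and 0.765, 1.25 and 0.546 FPKM in WT, which stand for 94, 138 and 101 reads in the libraries labelled Prkcz-/- and for 21, 31 and 15 reads in WT. The second library was the highest in each group, and the groups did not overlap. The log2 change was 1.80 (SE 0.19, limma adjusted p = 8.25e-05), the largest standard error among the members.

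Asporin (Aspn), a class I relative of decorin with a stretch of aspartates and no sugar chain of the chondroitin type, was at 37.0, 39.2 and 39.5 FPKM in the libraries labelled Prkcz-/-, against 13.6, 13.2 and 12.9 FPKM in WT. Its libraries agreed closely within groups, and the log2 change of 1.51 had an SE of 0.04 (limma adjusted p = 5.95e-08). Osteoglycin (Ogn), a class III member also called mimecan, was at 149, 153 and 149 FPKM in the libraries labelled Prkcz-/-, against 62.4, 75.8 and 62.7 FPKM in WT. WT library 2 was the highest of its group but stayed well below the other group, and the log2 change was 1.17 (SE 0.07, limma adjusted p = 3.67e-06).

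Biglycan (Bgn), the closest relative of decorin and a ligand of the receptors TLR2 and TLR4, was the most abundant member in every library. It was at 995, 991 and 982 FPKM in the libraries labelled Prkcz-/-, against 895, 877 and 896 FPKM in WT, at rank 31 and rank 52 of all genes. The groups did not overlap, but the ratio of the means was only 1.11, and the log2 change was 0.15 (SE 0.03, limma adjusted p = 0.00266). Of all genes tested, 26.6% changed less in absolute terms.

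Podocan (Podn), of class V, was at 1.26, 1.15 and 1.25 FPKM in the libraries labelled Prkcz-/-, against 0.998, 1.02 and 1.04 FPKM in WT. Its values did not overlap, yet the log2 difference of 0.18 missed the threshold (95% interval -0.05 to 0.42, limma adjusted p = 0.148). Ecm2 was at 0.808, 0.825 and 1.00 FPKM in the libraries labelled Prkcz-/-, against 1.35, 1.18 and 0.814 FPKM in WT. The highest library labelled Prkcz-/- lay above the lowest WT library, and the log2 difference was -0.21 (95% interval -0.57 to 0.14, limma adjusted p = 0.247). The exact permutation test, two-sided, gave p = 0.1 for each of the 10 members but Ecm2, for which the exact p was 0.3; with 3 libraries against 3 it cannot go below 0.1.

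The order of the levels, which FPKM allows to be compared between genes, differed between the groups. In the libraries labelled Prkcz-/- the order of the means was Bgn, Ogn, Aspn, Fmod, Dcn, Omd, Prelp, Podn, Ecm2 and Lum, and the ranges of neighbours overlapped only for Dcn and Omd. In WT it was Bgn, Ogn, Dcn, Aspn, Lum, Ecm2, Podn, Omd, Fmod and Prelp. There each of the last 5 genes, from Ecm2 to Prelp, overlapped in range with the next. Summed over the 10 genes, the level was 1197 to 1215 FPKM in the libraries labelled Prkcz-/- and 1025 to 1027 FPKM in WT. Bgn made up 82.0% ± 0.399 of that sum in the libraries labelled Prkcz-/- and 86.7% ± 1.10 in WT (SD, n = 3 each).

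Without Bgn the make-up of the family differed more. Ogn made up 69.3% ± 0.873 of the summed FPKM of the other 9 genes in the libraries labelled Prkcz-/- and 48.9% ± 1.65 in WT (SD, n = 3 each). Dcn made up 2.46% ± 0.345 in the libraries labelled Prkcz-/- and 35.9% ± 1.25 in WT. Aspn made up 17.8% ± 0.531 in the libraries labelled Prkcz-/- and 9.72% ± 0.773 in WT, and Fmod 6.34% ± 0.390 in the libraries labelled Prkcz-/- and 0.412% ± 0.0580 in WT. These shares are descriptions of the levels above and were not tested; they do not depend on a scaling factor per library.

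**Figure D2:**
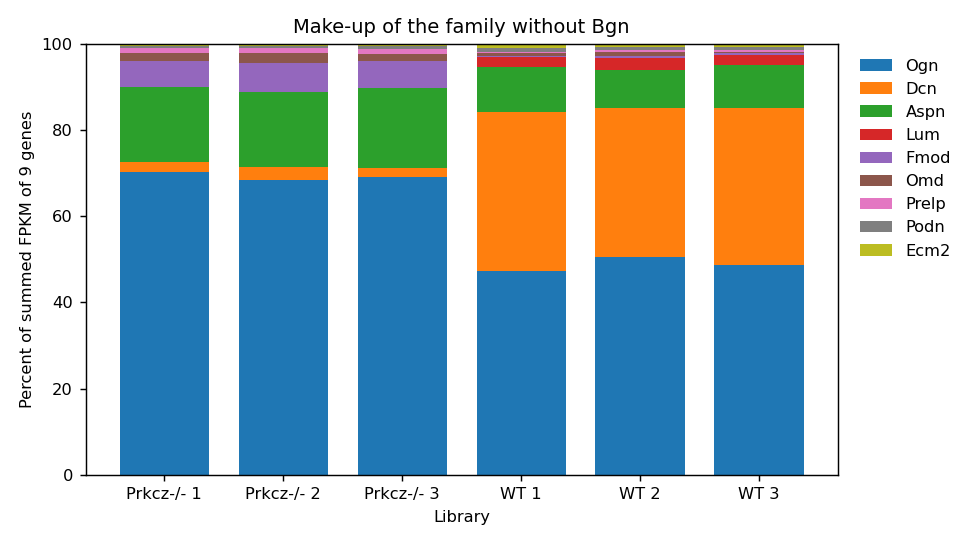
Stacked bars of the share, in percent, that each of 9 genes takes of their summed FPKM in each library, with the 3 libraries labelled Prkcz-/- on the left and the 3 WT libraries on the right; Bgn is left out. Dcn takes 34.5% to 36.9% in WT and 2.17% to 2.84% in the libraries labelled Prkcz-/-, where Ogn, Aspn and Fmod take larger shares.

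Most of these genes lie in 3 groups on the chromosomes, and neighbouring members mostly differed in the same direction. Dcn and Lum on chromosome 10 were both lower, and Prelp (133910304 to 133921414, minus strand) and Fmod (134037254 to 134048277, plus strand) on chromosome 1 were both higher. On the plus strand of chromosome 13, Ecm2 (49504810 to 49532789), Aspn (49544443 to 49567565), Omd (49582462 to 49592822) and Ogn (49608046 to 49624501) stand in a row, and the last 3 were higher while Ecm2 was not called. Bgn stands alone on chromosome X (73483602 to 73495933) and Podn on chromosome 4 (108014791 to 108096445), where Podn overlaps Scp2 on the same strand without shared exon bases.

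The genes beside them did not move as a block. Cenpp, which encodes a centromere protein, runs over the whole chromosome 13 row on the opposite strand and shares 7 exon bases with Aspn and none with the other 3. It was at 26.8 FPKM in the libraries labelled Prkcz-/- and 18.3 FPKM in WT (log2 change 0.55, SE 0.09, limma adjusted p = 7.78e-04). Around it, Nol8 was higher by 0.44 on the log2 scale (limma adjusted p = 8.63e-04), Iars was lower with a log2 change of -0.19 (adjusted p = 0.00340), and Ippk was not called (-0.03, adjusted p = 0.713). Beside Prelp and Fmod, the SLRP gene Optc was not called, whereas the antiproliferative gene Btg2 was higher, at 21.1 and 12.6 FPKM, and so was the calcium pump gene Atp2b4, at 9.12 and 0.790 FPKM, each in the libraries labelled Prkcz-/- and in WT (limma adjusted p = 1.38e-05 and 1.86e-07). Beside Bgn, Haus7 and Zfp275 were lower, with log2 changes of -0.21 and -0.27 (limma adjusted p = 0.00482 and 0.00386). Beside Podn, Echdc2 and Cpt2 were lower, both with a log2 change of -0.32 (limma adjusted p = 5.71e-04 and 5.66e-04), and Scp2 was not called (-0.11, adjusted p = 0.0560).

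**Figure D3:**
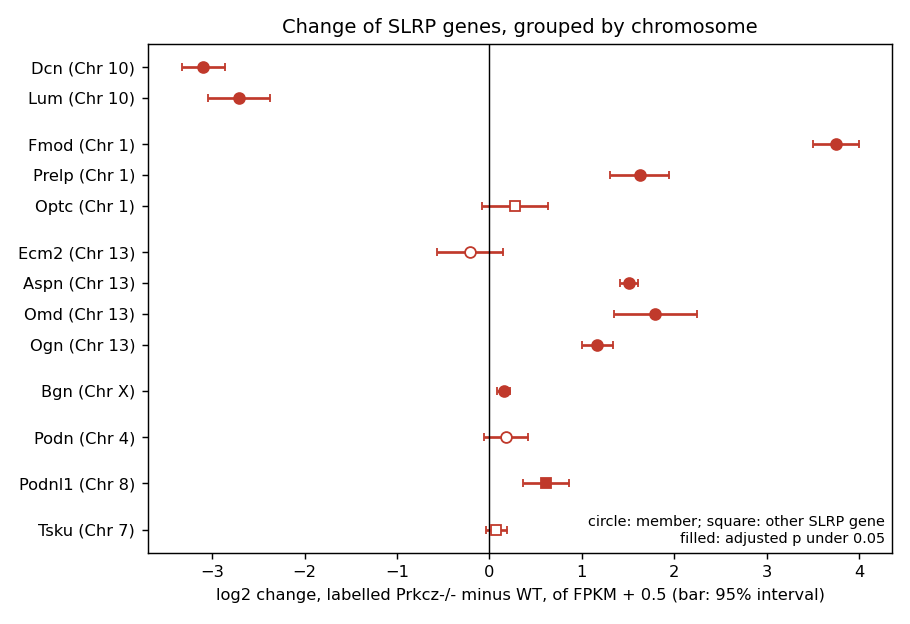
Log2 change of FPKM + 0.5, labelled Prkcz-/- minus WT, with 95% intervals, for the 10 members (circles) and 3 other tested SLRP genes (squares), grouped by chromosome; filled symbols passed the test. Dcn and Lum lie at -3.09 and -2.71, Fmod at 3.74, and the other called members between 0.15 and 1.80.

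The bases before the start are shown for genes that rose together. RefSeq (GRCm38.p6) gave windows for 8 of the 10 members, all but Dcn and Lum. The 250 bases before the start are printed for 3 genes of the chromosome 13 row and for Fmod, 5′ to 3′ on the strand of the gene, with capitals at each TATAAA, read on both strands.
Fmod: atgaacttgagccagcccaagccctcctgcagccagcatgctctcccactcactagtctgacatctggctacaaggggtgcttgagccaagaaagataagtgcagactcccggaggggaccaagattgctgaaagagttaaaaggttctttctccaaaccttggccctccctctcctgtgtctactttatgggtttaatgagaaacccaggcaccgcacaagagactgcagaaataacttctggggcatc
Aspn: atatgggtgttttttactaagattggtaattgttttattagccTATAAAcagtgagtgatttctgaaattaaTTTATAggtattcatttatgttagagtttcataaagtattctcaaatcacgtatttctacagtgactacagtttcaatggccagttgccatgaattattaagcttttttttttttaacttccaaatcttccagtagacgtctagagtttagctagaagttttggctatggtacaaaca
Omd: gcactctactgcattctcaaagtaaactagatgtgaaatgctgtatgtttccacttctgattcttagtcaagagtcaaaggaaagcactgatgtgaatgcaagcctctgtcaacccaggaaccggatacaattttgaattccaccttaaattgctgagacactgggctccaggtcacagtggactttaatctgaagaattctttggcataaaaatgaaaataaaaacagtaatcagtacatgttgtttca
Ogn: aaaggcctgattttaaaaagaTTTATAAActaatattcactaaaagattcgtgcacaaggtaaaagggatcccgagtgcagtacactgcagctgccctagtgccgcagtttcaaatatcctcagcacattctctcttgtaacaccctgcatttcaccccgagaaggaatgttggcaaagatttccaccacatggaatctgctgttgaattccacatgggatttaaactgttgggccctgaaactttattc
These windows lie at chr1:134037004-134037253, chr13:49544193-49544442, chr13:49582212-49582461 and chr13:49607765-49608014, all on the plus strand. Of them, Aspn and Ogn hold TATAAA, which 12.4% of the 32851 windows of all genes hold; in Ogn the matches on the opposite strands overlap, and in each gene they lie 178 or more bases before the start. TAATTA and TGANTCA, searched on both strands, were in no window of the 8 genes, against 4.84% and 6.75% of all windows. CANNTG was in Fmod, Aspn and Ogn and not in Omd, and in 66.2% of all windows. G and C made up 30.0% of the Aspn window, 38.4% in Omd, 42.0% in Ogn and 51.2% in Fmod; the median of all windows was 52.4%. The windows of Prelp, Ecm2 and Bgn had 55.6%, 40.0% and 64.4%. The motifs were chosen after the values were seen, and a match or its absence says nothing of binding.

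Among the 8 other genes of the family, 3 reached the level for a test. Podnl1, the relative of Podn, was at 3.81 ± 0.324 FPKM in the libraries labelled Prkcz-/- and 2.33 ± 0.313 FPKM in WT (SD, n = 3; log2 change 0.61, SE 0.11, limma adjusted p = 0.00116). Optc, which encodes opticin, was at 1.39 ± 0.0882 and 1.07 ± 0.290 FPKM in the libraries labelled Prkcz-/- and in WT (limma adjusted p = 0.138). Tsku, a secreted inhibitor of several growth factor pathways, was at 10.4 ± 0.0600 FPKM in the libraries labelled Prkcz-/- and 9.89 ± 0.373 FPKM in WT (limma adjusted p = 0.209). Upper-quartile scaling would call Tsku higher, at an adjusted p = 0.0194. Chadl, Chad, Nyx, Kera and Epyc stayed under a mean of 0.5 FPKM over all libraries. Of these, Chadl averaged 0.534 FPKM in the libraries labelled Prkcz-/- and 0.347 FPKM in WT, and its groups overlapped.

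The counts of called genes in the lists that follow stand beside 31.5% higher and 37.2% lower over all genes tested, 68.7% in all. Of 12 tested collagens that SLRPs bind, 8 were higher and 3 lower (91.7% called), with a median log2 change of 0.52. The fibril-associated Col12a1 was at 195 ± 4.58 FPKM in the libraries labelled Prkcz-/- and 22.0 ± 1.07 FPKM in WT (SD, n = 3; limma adjusted p = 2.80e-09). Col6a1 and Col6a2, chains of the beaded collagen VI that binds Bgn and Dcn, were at 429.9 ± 0.659 and 251 ± 2.51 FPKM in the libraries labelled Prkcz-/-, against 97.2 ± 7.56 and 34.4 ± 2.36 FPKM in WT. Col6a3, also a chain of collagen VI, was not called (limma adjusted p = 0.918) and was named after its values were seen. It was at 63.8 ± 0.411 FPKM in the libraries labelled Prkcz-/- and 64.2 ± 4.48 FPKM in WT. Col5a1, a chain that nucleates fibrils, was at 240.7 ± 5.65 and 144.8 ± 4.70 FPKM in the libraries labelled Prkcz-/- and in WT. The main fibril chains did not move together: Col1a1 was higher (log2 change 0.71), and Col1a2 and Col3a1 were lower (-0.50 and -0.73), with limma adjusted p of 2.65e-05 or less; these 3 were named after their values were seen.

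Other matrix partners had 4 of 8 tested members higher and 2 lower (75% called, median log2 change 0.36); with quantile or upper-quartile scaling 6 were higher. Dpt, whose product dermatopontin binds decorin, was lower together with Dcn, at 1.53 ± 0.239 FPKM in the libraries labelled Prkcz-/- and 88.4 ± 1.15 FPKM in WT (SD, n = 3; limma adjusted p = 3.66e-09). Eln, which encodes elastin, was at 5.60 ± 0.710 and 0.445 ± 0.154 FPKM in the libraries labelled Prkcz-/- and in WT. Fn1 (fibronectin) was at 1355 ± 24.8 FPKM in the libraries labelled Prkcz-/- and 752 ± 51.3 FPKM in WT, and Wisp1, a CCN family protein that binds Dcn and Bgn, at 112 ± 0.639 FPKM in the libraries labelled Prkcz-/- and 50.9 ± 5.46 FPKM in WT. All 3 were higher, with limma adjusted p of 3.70e-06 or less, but Eln passed the filter on low values only through the libraries labelled Prkcz-/-, so it had to differ.

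Growth factors and receptors listed as signalling partners of SLRPs had 12 of 19 tested members higher and 6 lower (94.7% called, median log2 change 0.31). Of the higher, 1, Bmp2, passed the filter on low values only through the libraries labelled Prkcz-/-. The ligands Tgfb3 and Tgfb2 were at 78.9 ± 2.64 and 12.5 ± 0.591 FPKM in the libraries labelled Prkcz-/-, against 8.95 ± 0.684 and 1.95 ± 0.233 FPKM in WT (SD, n = 3; limma adjusted p = 8.11e-09 and 1.76e-07). Hgf, the ligand of the receptor MET, was at 0.727 ± 0.130 FPKM in the libraries labelled Prkcz-/- and 11.0 ± 1.18 FPKM in WT (limma adjusted p = 1.50e-07). Egfr, a receptor that decorin binds and dampens, was at 23.0 ± 0.907 FPKM in the libraries labelled Prkcz-/- and 51.3 ± 3.44 FPKM in WT (limma adjusted p = 9.90e-07). The biglycan receptors went opposite ways: Tlr2 was at 7.65 ± 0.644 and 3.47 ± 0.116 FPKM and Tlr4 at 2.33 ± 0.269 and 6.99 ± 0.667 FPKM in the libraries labelled Prkcz-/- and in WT (limma adjusted p = 9.33e-06 and 7.70e-06, named after their values were seen).

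Enzymes that build chondroitin and dermatan sulfate had 9 of 20 tested members higher and 6 lower, or 10 and 3 with upper-quartile scaling, with a median log2 change of 0.04. The share called, 75%, was near the 68.7% of all genes tested. Of the 9 higher, 3 (Xylt1, Chst15 and Chst7) passed the filter on low values only through the libraries labelled Prkcz-/- and so had to differ. Xylt1, which adds the first sugar to the core protein, was at 2.73 ± 0.00869 FPKM in the libraries labelled Prkcz-/- and 0.0407 ± 0.00242 FPKM in WT (SD, n = 3; limma adjusted p = 4.32e-07). Its more abundant relative Xylt2, named after its values were seen, was at 11.0 ± 0.161 FPKM in the libraries labelled Prkcz-/- and 12.2 ± 0.517 FPKM in WT (log2 change -0.14, limma adjusted p = 0.0311). The sulfotransferases Chst15 and Chst11 were at 7.62 ± 0.0122 and 14.0 ± 0.856 FPKM in the libraries labelled Prkcz-/-, against 0.327 ± 0.0856 and 5.22 ± 0.107 FPKM in WT. Pxylp1, a phosphatase of the linker between chain and core, was at 14.6 ± 0.621 and 7.11 ± 0.220 FPKM in the libraries labelled Prkcz-/- and in WT. These 3 had limma adjusted p of 1.67e-06 or less.

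Of 5 tested genes for keratan sulfate, a chain found on Lum, Fmod and Omd, 3 were higher and 1 lower (80% called, median log2 change 0.27). Chst1, the sulfotransferase of keratan sulfate, was at 5.60 ± 0.361 FPKM in the libraries labelled Prkcz-/- and 0.403 ± 0.134 FPKM in WT (SD, n = 3; limma adjusted p = 8.03e-07); it too passed the filter only through the libraries labelled Prkcz-/-. Chst2 and B3gnt2 were higher by 0.84 and 0.27 on the log2 scale. B4galt1 was lower with a log2 change of -0.21 (limma adjusted p = 0.00526), a call lost with upper-quartile scaling (adjusted p = 0.0549). Genes that supply sugar and sulfate, listed together with Tpst1 and Tpst2, had 3 of 10 tested members higher and 5 lower (80% called, median log2 change -0.07). Tpst1 and Tpst2 use the sulfate donor rather than supply it, and both are among the 5 lower. Papss1, which makes the sulfate donor, was at 41.9 ± 1.40 FPKM in the libraries labelled Prkcz-/- and 68.3 ± 0.471 FPKM in WT, and Tpst1 and Tpst2, which sulfate tyrosines such as those of fibromodulin, had log2 changes of -0.67 and -0.38. Slc35b3, a carrier of the sulfate donor, had a log2 change of 0.54. All 4 had limma adjusted p of 3.13e-04 or less.

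Proteases and processing factors of SLRPs and their matrix had 4 of 9 tested members higher and 4 lower (88.9% called, median log2 change 0.07). The secreted protease Htra1 was at 194 ± 5.48 FPKM in the libraries labelled Prkcz-/- and 28.3 ± 0.839 FPKM in WT (SD, n = 3; limma adjusted p = 2.74e-09). Adamts5, a proteoglycan-cutting enzyme, was at 16.0 ± 0.505 and 59.6 ± 1.42 FPKM, and Mmp2 at 8.10 ± 0.313 and 19.2 ± 1.45 FPKM, in the libraries labelled Prkcz-/- and in WT. Tll1, a relative of the protease BMP1 that trims SLRP precursors, was at 1.18 ± 0.175 FPKM in the libraries labelled Prkcz-/- and 5.08 ± 0.1005 FPKM in WT. These 3 were lower, with limma adjusted p of 1.97e-06 or less. Their relatives did not all follow. Adamts4 was higher, at 17.9 ± 0.543 FPKM in the libraries labelled Prkcz-/- and 6.23 ± 0.802 FPKM in WT (limma adjusted p = 2.38e-06). Bmp1 was slightly higher, at 67.6 ± 0.791 FPKM in the libraries labelled Prkcz-/- and 61.3 ± 0.452 FPKM in WT (limma adjusted p = 0.00342). Adamts1 was lower (log2 change -0.47, limma adjusted p = 5.66e-06). These relatives were named after their values were seen.

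**Figure D4:**
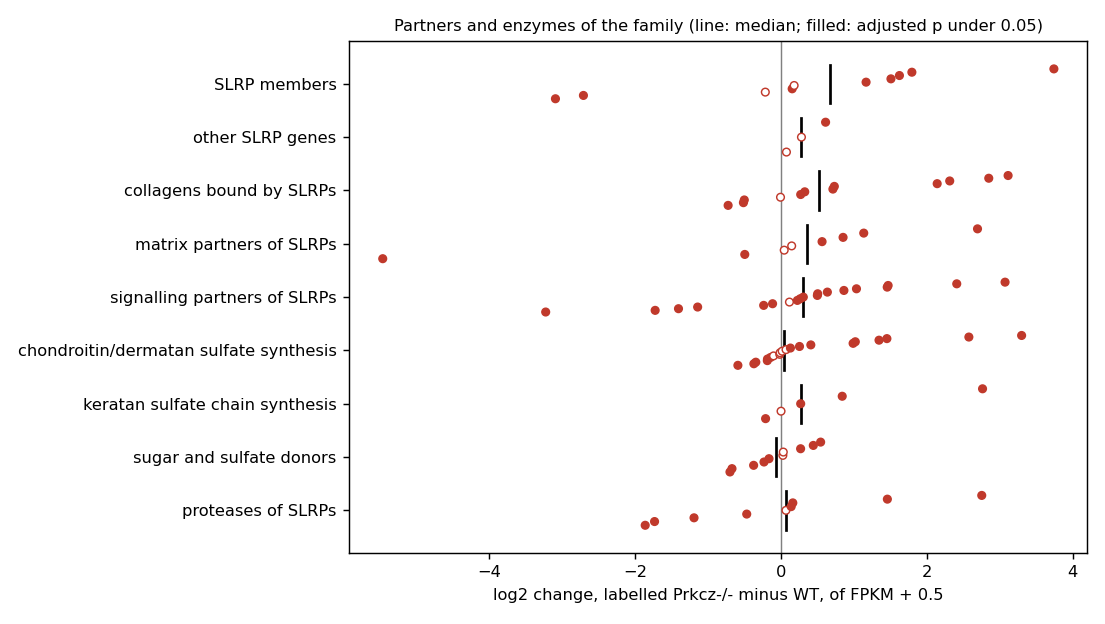
Log2 change of FPKM + 0.5, labelled Prkcz-/- minus WT, for each tested gene of 9 lists (rows), with a black line at the list's median and filled points where the adjusted p was under 0.05. The members spread from -3.09 to 3.74, and the partner and enzyme lists hold changes in both directions, with Dpt at -5.46 the lowest.

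Several SLRPs that rose are also known from bone, cartilage and tendon, so markers of those tissues are given beside them. The 12 markers summed to 33.7 to 35.9 FPKM in the libraries labelled Prkcz-/- and 15.6 to 16.96 FPKM in WT. The tendon factor Scx averaged 13.02 FPKM in the libraries labelled Prkcz-/- and 5.49 FPKM in WT, and the bone factor Runx2 12.98 FPKM in the libraries labelled Prkcz-/- and 5.52 FPKM in WT (limma adjusted p = 2.93e-05 and 3.04e-06). The cartilage factor Sox9 averaged 3.50 FPKM in the libraries labelled Prkcz-/- and 0.306 FPKM in WT (limma adjusted p = 1.58e-06), while the tendon factor Mkx averaged 3.74 FPKM in the libraries labelled Prkcz-/- and 4.24 FPKM in WT and was not called (limma adjusted p = 0.111). Sox9 passed the filter on low values only through the libraries labelled Prkcz-/-, and both genes were named after their values were seen. Of the 4 tested, 3 were higher and 1 was not called. Among the 12, 8 had no tested value: Col2a1, Acan, Comp, Matn3, Sp7, Bglap and Tnmd had a mean under 0.5 FPKM over all libraries. Ibsp had no row. Acan, Sp7 and Tnmd were at 0 in each WT library. In the libraries labelled Prkcz-/-, Acan was at 0.0174, 0.0538 and 0.0554 FPKM and Sp7 at 0.0598, 0.185 and 0.163 FPKM. Tnmd was at 0, 0 and 0.0504 FPKM there. The values of Acan, Sp7 and Tnmd lie far under the 0.5 FPKM of the filter. Others came nearer to it. Col2a1 was at 0.309 to 0.619 FPKM in the libraries labelled Prkcz-/- and 0.0239 to 0.203 FPKM in WT. Comp was at 0.357 to 0.519 FPKM in the libraries labelled Prkcz-/- and 0 to 0.0561 FPKM in WT. The groups overlapped for Matn3, at 0.484 to 0.620 and 0.289 to 0.562 FPKM, and for Bglap, at 0 to 0.451 and 0 to 0.407 FPKM, in the same order. Smooth muscle and pericyte markers summed to 1984 to 2061 FPKM in the libraries labelled Prkcz-/- and 1195 to 1314 FPKM in WT, most of it Acta2, with Cnn1 at 86.7 FPKM in the libraries labelled Prkcz-/- and 86.4 FPKM in WT. The pericyte markers Cspg4 and Rgs5 went opposite ways, with Cspg4 at 0.924 FPKM in the libraries labelled Prkcz-/- and 3.35 FPKM in WT (limma adjusted p = 8.12e-06), and Rgs5 at 1.29 FPKM in the libraries labelled Prkcz-/- and listed at 0 in each WT library; both were named after their values were seen. Rgs5 passed the filter on low values only through the libraries labelled Prkcz-/-, so it had to differ. Of the 6 tested markers of this list, 3 were higher, Rgs5 among them, 1 was lower and 2 were not called. The part of such cells in the SLRP differences was not tested.

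The genes whose profile over the 6 libraries was most like that of Bgn were Gclm, Cacul1 and Exoc2, with Euclidean distances of 0.0354 to 0.0359 between log2(FPKM + 0.5) profiles less their mean. For Ogn they were Fam129a, Tcn2 and Csad, at distances of 0.101 to 0.124, among the 7034 genes whose mean reached 10 FPKM. With 2 groups that stand this far apart, such likeness is mostly a like difference between the groups. Fam129a was at 48.8 and 22.2 FPKM in the libraries labelled Prkcz-/- and in WT.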

How the data were processed

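RNA was measured in 3 libraries labelled Prkcz-/- and 3 labelled WT. Per the labels' protocols, polyadenylated RNA was made into directional libraries read from a single end. Per the submitters' processing notes, mm10, STAR and DESeq2 were used; for their roles and versions, the gene annotation and the strand setting, the sources used here give nothing. Expression was deposited by the authors as 1 table of FPKM per gene and library, from which genes at 0 in every library are absent.

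The values are not counts, so log2(FPKM + 0.5) was compared with limma 3.58.1 in R 4.3.3 (lmFit, eBayes with a variance trend) over the 12130 of 16874 genes whose mean reached 0.5 FPKM, with Benjamini-Hochberg adjustment and a threshold of 0.05. The fit was tested on simulated data. Reads per library were estimated from steps among values under 0.15 FPKM and GENCODE M21 exon lengths; they are approximate, and read numbers of single genes are the smallest whole numbers that match all 6 libraries within 0.01.

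Members and gene lists were chosen with earlier results of these data known. From each of 8 lists the 4 genes with the smallest p were named, with up to 4 nearest genes within 200 kb of each group of members, and the most abundant genes of 7 marker lists. Besides Kera and Epyc, neighbours without a tested value are not given. Other pseudocounts, filters, scalings, variance models, thresholds, a replicate block and each library left out were tried.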

Additional observations from a re-analysis of the deposited data

How the results depend on the processing

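Fmod, Omd, Prelp, Aspn, Ogn and Bgn stayed higher and Dcn and Lum lower in each of the 19 other settings that tested them, with the adjusted p under 0.05. The log2 change ranged from 3.24 to 4.39 for Fmod, 1.48 to 2.20 for Omd, 1.26 to 2.16 for Prelp, 1.48 to 1.60 for Aspn, 1.12 to 1.26 for Ogn, 0.14 to 0.30 for Bgn, -3.21 to -2.99 for Dcn and -4.20 to -2.001 for Lum; for Fmod, Omd, Prelp and Lum both ends came with the other pseudocounts, 0.1 and 1. With a filter at a mean of 2 FPKM, 5 members were called higher and 1 lower, because Prelp and Lum were no longer tested. With a log2 change of at least 1 required, Bgn at 0.15 was not called, 884 genes of the table were higher and 431 lower, and 19 and 8 genes of the partner and enzyme lists. Podn and Ecm2 were not settled: Podn was at -0.084 with quantile normalization (limma adjusted p = 0.491) and was called higher at 0.18 without a variance trend (limma adjusted p = 0.0104), and Ecm2 was called lower at -0.49 with quantile normalization (limma adjusted p = 0.0209); the cause was not tested. The summed FPKM of the members averaged 1206 in the libraries labelled Prkcz-/- and 1026 in WT without scaling. The direction of this difference held but its size depended on the scaling. The sum was higher in the libraries labelled Prkcz-/- by 203 with median-ratio scaling, 281 with quantile normalization and 252 with upper-quartile scaling. Leaving out any 1 library changed no member's call. With the replicate number as a block, 6 members were higher and 2 lower, and 66.7% of all genes were called. Deviations of libraries with the same number correlated at 0.0599, 0.0148 and 0.00827 across genes, and the third library labelled Prkcz-/- correlated better with another number, so the numbers do not show pairs. Depth limits Lum in the libraries labelled Prkcz-/-, where a few reads set its level.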
